A study of Rattus norvegicus with 9 samples.

Results

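Axon guidance ligands and their receptors were examined in cultured neural stem cells (NSCs) that had received no exosomes, exosomes, or exosomes made by Wnt5a-overexpressing cells. The genes were taken by name: every row of the count table whose symbol begins with Sema3 to Sema7, Plxn, Nrp1, Nrp2, Epha, Ephb, Efna, Efnb, Slit1 to Slit3, Robo, Ntn or Unc5, together with Dcc. This gave 74 of 23953 genes. Of these, 71 are guidance genes, 37 ligands and 34 receptors, in 16 families. The other 3 were taken by name but are not counted as guidance ligands or receptors: Unc50, a protein of the Golgi, Unc5cl, and the noncoding transcript Plxna4os1. The annotation deposited beside the counts placed 66 of the 71 under the KEGG axon guidance pathway, which held 180 genes in all.

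The NSCs came from the spinal cord of neonatal rats and were kept in differentiation medium, which all groups shared. The Con group received the medium alone. The Exo group received in addition exosomes, small vesicles released by cells, from bone marrow mesenchymal stem cells (BMSCs) that carried an empty lentiviral vector, and the pLV-Exo-Wnt5a group received exosomes from BMSCs that overexpressed rat Wnt5a. Each group held 3 RNA-seq libraries, and the labels do not say whether these were separate cultures, so a p-value measures only the spread between these libraries.

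Semaphorins, ephrins, netrins and Slits are cues that steer growing axons and migrating cells. Class 3 semaphorins are secreted and act through neuropilins, which bind the cue, and plexins, which carry the signal, whereas most other semaphorins sit in the membrane and bind plexins directly. Ephrins are held at the cell surface and bind Eph receptor tyrosine kinases on the neighbouring cell. Netrin-1 attracts axons through DCC and repels them through UNC5 receptors, and Slits repel through ROBO receptors. In the developing spinal cord, netrin-1 draws commissural axons to the floor plate, and Slits and semaphorins keep them from crossing back.

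Total counts ranged from 32765138 to 40427647 per library, and 3 counts corresponded to 0.0742 to 0.0916 CPM (counts scaled to the library's total). Con replicate 1 stood apart from the other libraries. Its mean distance to the others was 76.6 (on log2 CPM), against 59.7 to 66.0 for the other 8 libraries. The mean absolute deviation of the tested rows from their mean over all 9 libraries was 0.281 there, against 0.102 to 0.192. That deviation holds differences between groups as well as between replicates. The main results against Con are therefore also given without it. In the NSCs themselves, Wnt5a mRNA was at 20.8, 26.1 and 29.8 CPM in Con, 33.6, 25.6 and 27.8 in Exo, and 30.8, 24.3 and 31.7 in pLV-Exo-Wnt5a, and the groups overlapped. The vector was in the BMSCs, so these values do not check the labels.

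Of the 74 rows, 67 had enough reads to be tested in every comparison, 34 ligands, 32 receptors and Unc50. The 7 others were Sema3d, Sema3g, Ntn5, Epha1, Robo4, Unc5cl and Plxna4os1. None of them exceeded 0.571 CPM in any library, the value of Ntn5 in Con replicate 1. Epha1 had no read in 5 libraries and Unc5cl had none in 8. The median coefficient of variation of the 67 rows was 10.5% in Con, 8.71% in Exo and 10.6% in pLV-Exo-Wnt5a, against 12.3%, 8.84% and 9.23% for all genes. CPM is not a level per length of transcript, so levels are compared here between libraries and not between genes.

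Within each family, the member with the most counts was Sema3f, Sema4g, Sema5b, Sema6b, Sema7a, Efna3, Efnb3, Slit1, Ntn1, Plxna1, Nrp2, Epha4, Ephb2, Robo1, Unc5a or Dcc. Ntn1, which encodes the secreted netrin-1, was among the steadiest, at 132.5, 126 and 126 CPM in Con, 129, 123 and 127 in Exo, and 129.5, 120 and 139 in pLV-Exo-Wnt5a. The groups overlapped, and its log2 fold change was between -0.03 and 0.05 in the 3 comparisons. Summed over all 37 ligands, the level was 1780 ± 59.6 CPM in Con, 1773 ± 71.0 in Exo and 1784 ± 116 in pLV-Exo-Wnt5a (mean ± SD, n = 3). Summed over the 34 receptors, it was 3159 ± 106, 2936 ± 163 and 3146 ± 130 CPM. For ligands and receptors alike, the libraries of the groups overlapped. The receptor sum was mostly plexins, at 2405 CPM in Con, 2174 in Exo and 2397 in pLV-Exo-Wnt5a on average. Gene by gene, 21 of the 32 tested receptors had a positive log2 fold change in Exo against Con and 11 a negative one.

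**Figure D1:**
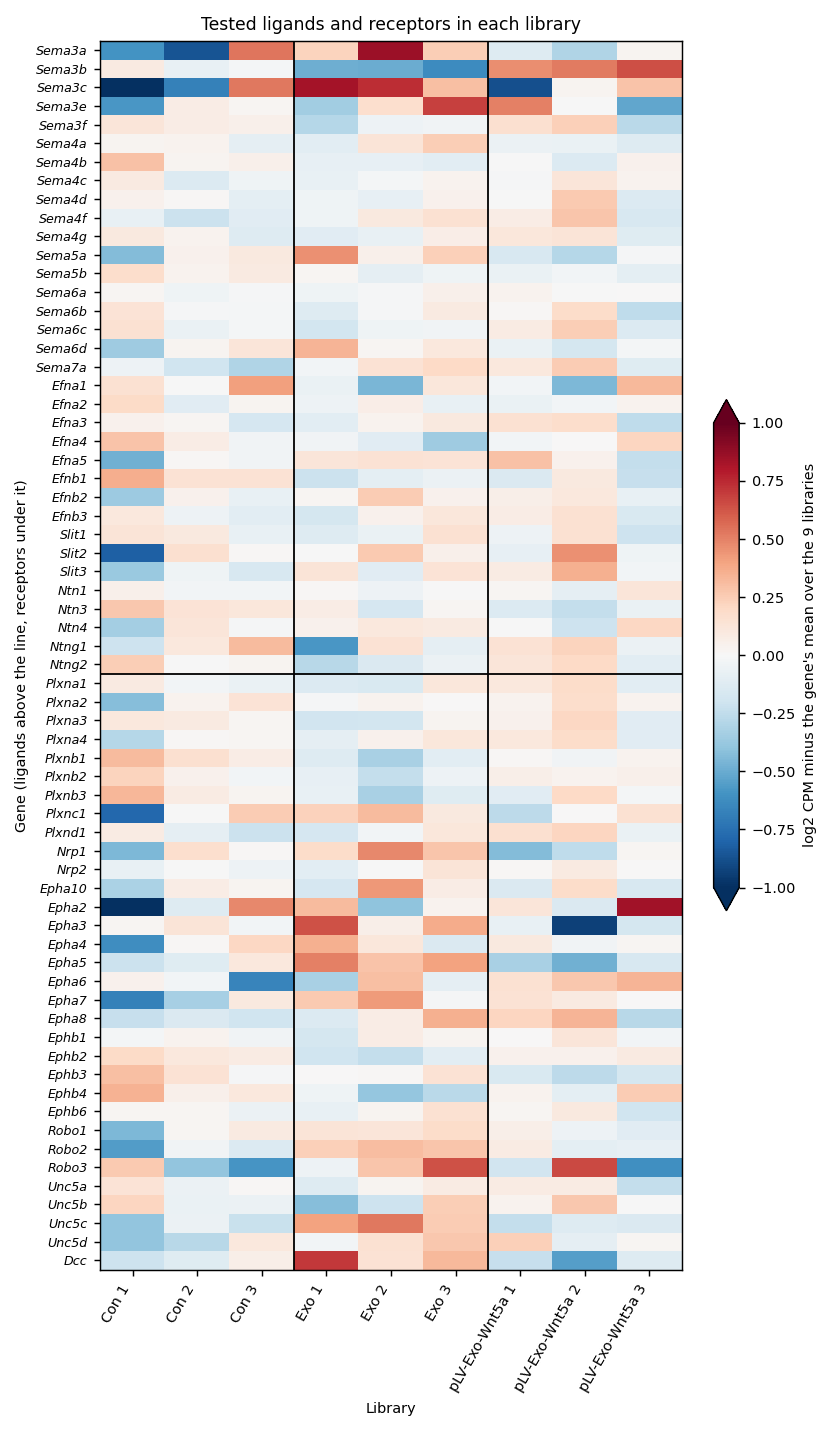
Each row is one of the 66 tested ligands and receptors and each column a library. Colour gives log2 CPM minus the gene's mean over the 9 libraries, cut at 1 in either direction. Con 1 has the widest deviations of the Con libraries, Sema3b is lowest in the Exo columns, and Epha5, Robo2, Unc5c and Dcc are highest there.

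The first comparison, Exo against Con, asked what exosomes without added Wnt5a did. No guidance gene passed the threshold used by the study (Q under 0.05 and a change of over 2-fold either way), by edgeR's quasi-likelihood test or by DESeq2. Of all tested genes, 0.00664% did by edgeR, and by DESeq2 29 of 23057 did. At an unadjusted p under 0.05, without regard to size, 16 of the 67 rows passed (23.9%, against 14.9% of all tested genes). Of these 16, 6 were higher in Exo, where 8.92% of all tested genes were higher, and 10 were lower, where 6.01% were lower. With a further limit of 0.58 on the absolute log2 fold change, 1 remained, Unc5c, which was higher. Of all tested genes, 3.56% passed that limit upward and 0.909% downward. The smallest Q among the 67 was 0.265, so each difference from Con given below is uncorrected for multiple tests.

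Among the receptors, the 8 tested members of the Dcc, Unc5 and Robo families, which bind netrin or Slit, were pooled. In Exo, 6 of the 8 had a positive log2 fold change, and the median was 0.40 against 0.00 for all tested genes. The Unc5 family alone held 2 positive and 2 negative values (median 0.13). At an unadjusted p under 0.05, 3 of the 8 were higher (Unc5c, Dcc and Robo2), where 8.92% of all tested genes were. When Con replicate 1 was left out, 7 of 8 were positive, 3 passed and the median was 0.28. Unc5c, a receptor through which netrin-1 repels axons, was at 6.20, 7.83 and 7.001 CPM in Con and at 10.8, 11.8 and 9.75 in Exo. Each Exo library was above each Con library. The difference was 1.53-fold (log2 fold change 0.61, SE 0.15, unadjusted p = 0.00264 and Q = 0.265 by edgeR).

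Dcc, the receptor through which netrin-1 attracts, was at 7.55, 8.04 and 9.07 CPM in Con and at 14.2, 9.66 and 10.9 in Exo. The groups did not overlap, and Exo replicate 1 was the highest. The log2 fold change was 0.49 (SE 0.17, unadjusted p = 0.0158 and Q = 0.277 by edgeR). It was 0.43 without Con replicate 1, and 0.33 without Exo replicate 1, where it no longer passed an unadjusted p under 0.05. Robo2, a Slit receptor, was at 19.9, 28.6 and 26.6 CPM in Con and at 34.6, 36.3 and 35.6 in Exo. The lowest Con library was replicate 1, and the groups did not overlap. Its log2 fold change was 0.50 (SE 0.13, unadjusted p = 0.00394 and Q = 0.265 by edgeR), and 0.35 (unadjusted p = 0.00200 by edgeR) without Con replicate 1. Robo1 and Robo3 did not pass the test, with log2 fold changes of 0.23 and 0.49, and Robo3 was at 0.509 to 1.23 CPM over the 9 libraries.

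All 8 tested EphA receptors had a positive log2 fold change (median 0.25), as did 7583 of all 15070 tested genes. Of the 8, Epha5 and Epha7 passed an unadjusted p under 0.05, where 8.92% of all tested genes were higher. Of the 5 EphB receptors, 4 had a negative log2 fold change (median -0.10). Ephb2 and Ephb4 passed, where 6.01% of all tested genes were lower. The call of Epha7 was lost in 5 of 12 alternatives and that of Ephb4 in 2. The difference between the families was not tested. Epha5 was at 12.8, 13.6 and 15.9 CPM in Con and at 21.0, 18.0 and 19.6 in Exo, without overlap (log2 fold change 0.46, SE 0.13, unadjusted p = 0.00445 and Q = 0.265 by edgeR). Ephb2, a receptor of ephrin-B ligands, was at 226, 212 and 209 CPM in Con and at 172, 167 and 183 in Exo. Every Exo library was below every Con library, and the log2 fold change was -0.32 (SE 0.08, unadjusted p = 0.00173 and Q = 0.265 by edgeR). Without Con replicate 1, the log2 fold change was 0.40 for Epha5 and -0.28 for Ephb2, and both passed. Of the EphA receptors 7 of 8 were then positive (median 0.28), while Epha7 no longer passed (unadjusted p = 0.0765 by edgeR), and 4 of 5 EphB receptors were negative (median -0.03).

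All 3 plexin-B genes were lower in Exo at an unadjusted p under 0.05, where 6.01% of all tested genes were lower. Their log2 fold changes were -0.38 for Plxnb1, -0.21 for Plxnb2 and -0.33 for Plxnb3. Plxnb1 was at 632, 566 and 534 CPM in Con and at 463, 405 and 472 in Exo. All Exo libraries were below all Con libraries (SE 0.09, unadjusted p = 0.00208 and Q = 0.265 by edgeR). Without Con replicate 1, the values were -0.31, -0.14 and -0.23, and Plxnb2 did not pass (unadjusted p = 0.0632 by edgeR), a call lost in 5 of 12 alternatives. Of the 4 tested plexin-A genes, the signalling partners of neuropilins, Plxna3 alone passed (-0.19), a call lost in 6 of 12 alternatives, DESeq2 among them, and Plxna1, Plxna2 and Plxna4 were at -0.06, 0.07 and 0.10. Plxnc1 (0.33) and Plxnd1 (0.04) did not pass either, and no difference between the classes was tested.

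Among the 34 tested ligands, 5 passed an unadjusted p under 0.05 (14.7%, against 14.9% of all tested genes), and the median log2 fold change was -0.01, so the share of ligands was that of the background. The count for the receptors was 11 of 32 (34.4%), with a median of 0.12, and the difference between ligands and receptors was not tested. Sema3b, a secreted semaphorin, was at 4.98, 4.44 and 4.63 CPM in Con and at 3.33, 3.32 and 3.03 in Exo. Its groups did not overlap (log2 fold change -0.55, SE 0.18, unadjusted p = 0.0123 and Q = 0.270 by edgeR). Efnb1, a transmembrane ephrin, was at 95.4, 81.8 and 82.2 CPM in Con and at 63.9, 69.2 and 71.1 in Exo (log2 fold change -0.35, SE 0.10, unadjusted p = 0.00389 by edgeR). The highest library was Con replicate 1, and the groups did not overlap. Without that library the log2 fold change was -0.28 for Efnb1 and -0.50 for Sema3b, and both passed. Sema4b (-0.23) and Ntng2 (-0.26) were also lower, and without Con replicate 1 neither passed, their calls being lost in 6 and 5 of 12 alternatives. Sema7a, a semaphorin anchored to the membrane by a lipid, was the only ligand higher at an unadjusted p under 0.05 (0.28), a call lost in 5 of 12 alternatives (the replicate block, and without Con replicate 2 or 3 or Exo replicate 2 or 3). No Slit passed. Slit2 was at 4.88 CPM in Con replicate 1, 9.61 and 8.71 in the other Con libraries and 8.58, 10.3 and 8.94 in Exo. Among genes that did not pass, Sema3a had a log2 fold change of 0.65 at 0.668 to 2.20 CPM, with an SE of 0.40.

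Without Con replicate 1, 13 of the guidance genes passed an unadjusted p under 0.05 (19.1% of those tested, against 12.1% of all tested genes), and Unc5c fell out of the stricter list because its log2 fold change was 0.53.

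**Figure D2:**
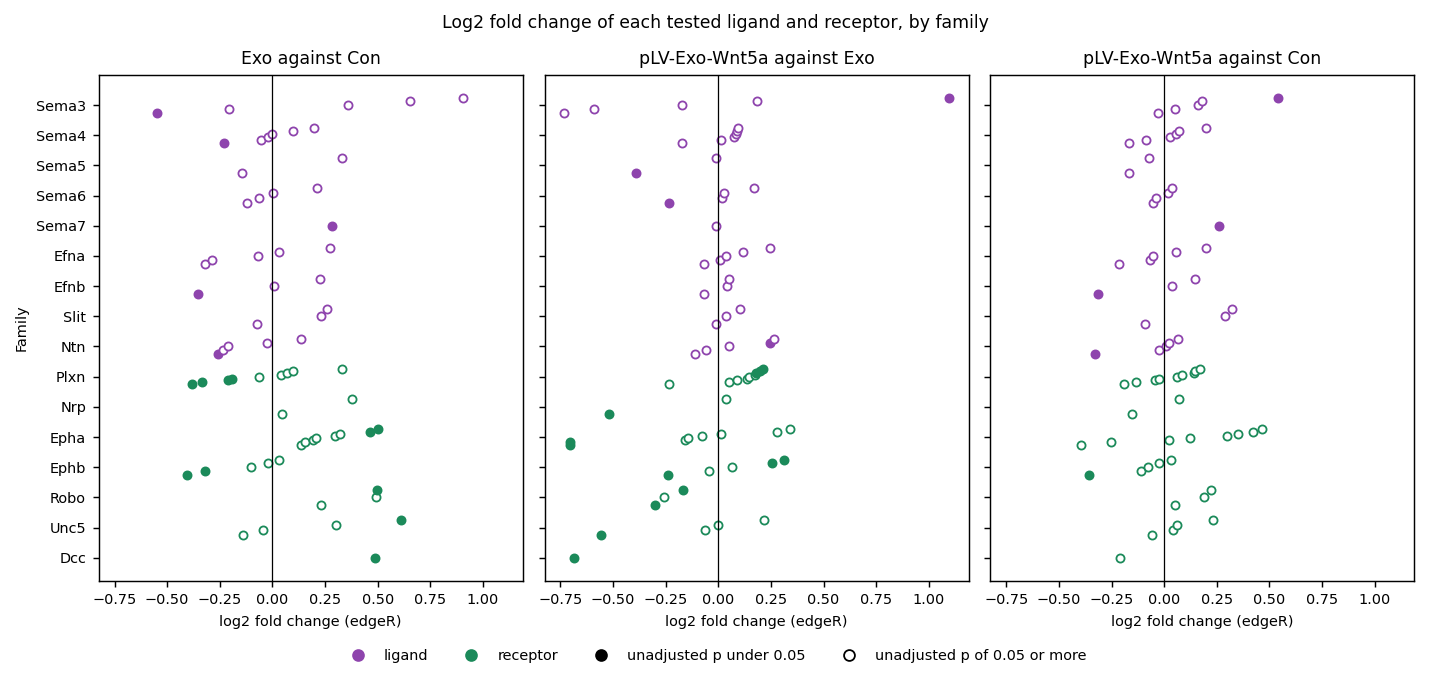
Each point is one tested gene, placed by its log2 fold change (horizontal axis, edgeR) in its family (vertical axis), in each of the 3 comparisons. Purple marks ligands and green receptors, and filled points have an unadjusted p under 0.05. EphA points lie to the right of 0 in Exo against Con, and Sema3b lies alone at 1.10 in pLV-Exo-Wnt5a against Exo.

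Next, pLV-Exo-Wnt5a was set against Exo, which asked what overexpression of Wnt5a in the exosome-producing cells added. The guidance gene past the study's threshold was Sema3b, 1 of the 67, and 0.159% of all tested genes passed. Sema3b was at 6.49, 6.73 and 7.32 CPM in pLV-Exo-Wnt5a against 3.33, 3.32 and 3.03 in Exo. The groups were well apart, and the Con libraries lay between them. The change was 2.14-fold (log2 fold change 1.10, SE 0.15, Q = 0.0136 by edgeR). With 1 library left out the log2 fold change stayed between 1.04 and 1.14, while Q rose to 0.101 when Exo replicate 2 was dropped and to 0.0510 when pLV-Exo-Wnt5a replicate 1 was dropped (edgeR).

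Without the limit on the fold change, 0.436% of all tested genes had Q under 0.05 and Epha5 joined Sema3b. It was at 11.8, 10.6 and 13.3 CPM in pLV-Exo-Wnt5a against 21.0, 18.0 and 19.6 in Exo. All pLV-Exo-Wnt5a libraries were lower (log2 fold change -0.70, SE 0.12, Q = 0.0276 by edgeR). When single libraries were left out its Q lay between 0.0340 and 0.123 (edgeR), so that the call was lost in 5 of the 6 cases and kept when pLV-Exo-Wnt5a replicate 3 was dropped.

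At an unadjusted p under 0.05, 17 of the 67 rows passed (25.4%, against 12% of all tested genes), 7 higher and 10 lower, where 5.07% of all tested genes were higher and 6.91% lower. With the limit of 0.58, 4 were left. Sema3b was higher, where 1.51% of all tested genes passed, and Epha5, Dcc and Epha3 were lower, where 1.98% did. Of the receptors, 13 of 32 passed an unadjusted p under 0.05 (40.6%), and of the ligands 4 of 34 (11.8%, close to the 12% of all tested genes), a difference that was not tested. The call of Epha3 was lost in 2 of 12 alternatives.

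With Wnt5a, 7 of the 8 pooled netrin and Slit receptors had a negative log2 fold change, and the median was -0.21 against 0.00 for all tested genes. At an unadjusted p under 0.05, 4 of the 8 were lower, where 6.91% of all tested genes were. Dcc was at 7.42, 5.96 and 7.99 CPM in pLV-Exo-Wnt5a, below each Exo library (log2 fold change -0.69, SE 0.17, unadjusted p = 0.00188 and Q = 0.116 by edgeR). Unc5c was at 6.92, 7.47 and 7.37 CPM, also below each Exo library (log2 fold change -0.56, SE 0.13, unadjusted p = 0.00113 and Q = 0.0939 by edgeR). By DESeq2, Q was 0.00992 for Dcc and 0.00873 for Unc5c, under the threshold but within the fold limit. The share of all genes under that Q by DESeq2 was counted only with the fold limit, which 71 of 23185 passed. Robo2, at 30.9, 27.4 and 27.6 CPM, showed the same order of groups (log2 fold change -0.30, SE 0.08, Q = 0.157 by edgeR), as did Robo1 with a log2 fold change of -0.17 (unadjusted p = 0.0245 by edgeR), a call lost in 4 of 12 alternatives.

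Nrp1, the neuropilin that binds Sema3a, was at 6.11, 6.92 and 8.38 CPM against 9.41, 11.5 and 10.03 in Exo. The groups did not overlap (log2 fold change -0.52, SE 0.15, unadjusted p = 0.00650 and Q = 0.198 by edgeR). Nrp2 stood at 0.04. Sema3a itself was at 1.11, 0.985 and 1.24 CPM against 1.42, 2.20 and 1.44, and did not pass (log2 fold change -0.59, SE 0.31). Sema5a (-0.39) and Sema6d (-0.24), membrane semaphorins, were lower at an unadjusted p under 0.05, the call of Sema6d being lost in 3 of 12 alternatives. Plxna1, a receptor of Sema6d, was at 0.14 and did not pass.

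Ephb2, Ephb4 and the 3 B plexins, which had been lower in Exo than in Con, were higher with Wnt5a at an unadjusted p under 0.05. Ephb2 was at 204, 203 and 210 CPM against 172, 167 and 183 in Exo, without overlap (log2 fold change 0.25, SE 0.06, unadjusted p = 0.00104 and Q = 0.0888 by edgeR). Ephb4 was higher by 0.31 on the log2 scale and Ephb3 lower by 0.24, at 41.1, 38.0 and 40.5 CPM against 46.0, 46.1 and 50.5. Plxnb1, Plxnb2 and Plxnb3 were higher by 0.20, 0.18 and 0.21 on the log2 scale, each at an unadjusted p under 0.05. All 3 calls were lost when Exo replicate 2 was dropped, that of Plxnb3 in 4 of 12 alternatives and that of Ephb4 in 5 of 12. Plxnb1 was at 510, 495 and 519 CPM, above all Exo libraries and below all Con libraries. Epha4, the EphA receptor with the most counts, was at -0.08, and its ligand Efnb3 at 0.04, and neither passed.

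The 2 comparisons share the 3 Exo libraries, so a gene that is high or low in these moves in opposite directions in both, and the values are given side by side without a test of the pattern. In all 9 libraries, 6 of the 67 rows had every Exo library above the other 6 (Nrp1, Epha5, Robo1, Robo2, Unc5c and Dcc), against 3.02% of all genes, and 4 had every Exo library below (Sema3b, Plxnb1, Plxnb2 and Ephb2), against 3.22%. The shares of the 67 were 8.96% and 5.97%. The 6 genes that were highest in Exo are all receptors, and 4 of them bind netrin or Slit. In RefSeq's assembly GRCr8, Robo1 and Robo2 follow each other with 1 protein-coding gene between them.

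**Figure D3:**
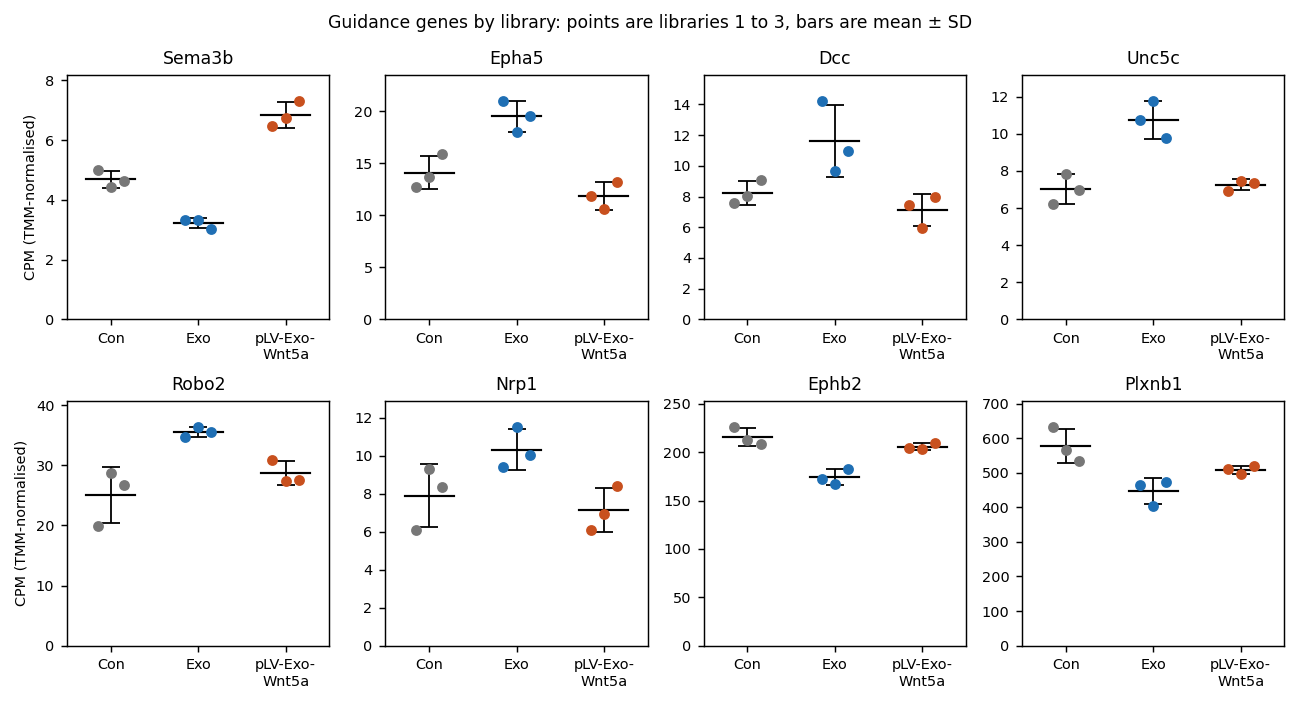
Each panel is a gene, with the 9 libraries as points (vertical axis, CPM from 0) and the mean ± SD of each group as bars. Exo libraries are lowest for Sema3b, Ephb2 and Plxnb1 and highest for Epha5, Dcc, Unc5c, Robo2 and Nrp1.

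The promoters of 56 of the 71 guidance genes were matched by symbol to RefSeq (GRCr8). The 250 bases before the start are shown for Epha5 (chr14:24007872-24008121, + strand) and Robo2 (chr11:26526413-26526662, - strand), which were highest in Exo, and for Ephb2 (chr5:154360425-154360674, - strand) and Plxnb1 (chr8:118622911-118623160, + strand), which were lowest there. Capitals mark CG dinucleotides, counted on the printed strand.
Epha5: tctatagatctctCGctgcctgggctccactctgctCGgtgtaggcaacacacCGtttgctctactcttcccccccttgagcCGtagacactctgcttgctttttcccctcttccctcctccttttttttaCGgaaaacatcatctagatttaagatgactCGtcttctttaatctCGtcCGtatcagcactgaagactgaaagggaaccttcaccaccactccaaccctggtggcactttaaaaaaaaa
Robo2: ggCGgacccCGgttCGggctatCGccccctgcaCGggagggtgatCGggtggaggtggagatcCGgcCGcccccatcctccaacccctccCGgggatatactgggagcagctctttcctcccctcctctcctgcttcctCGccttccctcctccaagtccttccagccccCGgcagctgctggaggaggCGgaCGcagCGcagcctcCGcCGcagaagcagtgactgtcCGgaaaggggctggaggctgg
Ephb2: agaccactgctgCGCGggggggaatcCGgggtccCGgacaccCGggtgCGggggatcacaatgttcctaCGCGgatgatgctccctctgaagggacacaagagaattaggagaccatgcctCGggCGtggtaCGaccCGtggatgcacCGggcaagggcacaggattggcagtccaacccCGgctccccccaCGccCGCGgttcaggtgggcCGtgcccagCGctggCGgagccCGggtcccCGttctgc
Plxnb1: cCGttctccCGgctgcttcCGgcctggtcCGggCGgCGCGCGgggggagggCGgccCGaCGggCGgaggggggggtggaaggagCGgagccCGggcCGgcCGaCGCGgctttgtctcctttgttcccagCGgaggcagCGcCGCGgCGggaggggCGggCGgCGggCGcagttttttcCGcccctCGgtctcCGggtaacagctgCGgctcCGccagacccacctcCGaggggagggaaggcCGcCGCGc
These hold 8, 17, 22 and 36 CG dinucleotides respectively, and their GC content is 47.6%, 69.2%, 68.4% and 78.0%. Over the 56 promoters the median was 14 CG dinucleotides and 62.2% GC, against 6 and 52.0% for 27457 promoters of the same length. The letters TATAAA, searched on both strands, were in none of the 56 windows and in 13.1% of the 27457. Binding or methylation at these windows was not analysed here.

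Between pLV-Exo-Wnt5a and Con, no guidance gene passed the study's threshold by edgeR or by DESeq2, while 0.0663% of all tested genes did by edgeR and 27 of 23093 by DESeq2, and none was past the unadjusted p with the limit of 0.58, where 1.46% of all tested genes were higher and 0.696% lower. At an unadjusted p under 0.05 alone, 5 of 67 passed (7.46%, against 8.35% of all tested genes). Sema3b (0.54) and Sema7a (0.26) were higher, where 4.2% of all tested genes were, and Ephb3 (-0.36), Efnb1 (-0.32) and Ntn3 (-0.33) lower, where 4.15% were. The calls of Sema7a, Ntn3 and Efnb1 were lost in 4, 3 and 2 of 12 alternatives, and those of Sema3b and Ephb3 in none. The smallest Q was 0.475 (edgeR, for Ephb3).

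Sema3b was above Con in all 3 pLV-Exo-Wnt5a libraries (1.45-fold, SE 0.17 on the log2 scale, unadjusted p = 0.00873 and Q = 0.488 by edgeR), and it was the single guidance gene with every pLV-Exo-Wnt5a library above the other 6, against 1.84% of all genes. Epha3 and Ephb3 had every one below, against 2.17%. Sema5b, Plxnb1, Efnb1 and Ntn3 were highest in all Con libraries, against 5.1% of all genes, and no guidance gene was lowest in Con, against 3.36%. For the receptors that were high in Exo, pLV-Exo-Wnt5a and Con overlapped. The log2 fold change of Unc5c was 0.04 (95% interval -0.32 to 0.41) and that of Dcc was -0.21 (95% interval -0.59 to 0.17).

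Without Con replicate 1, 8 guidance genes passed an unadjusted p under 0.05 (11.9%, against 9.3% of all tested genes), among them Epha5, which was lower (-0.31, unadjusted p = 0.0484 by edgeR), and Plxnd1, which was higher (0.26). The EphA receptors, 6 of 8 positive with Con replicate 1, were then 4 of 8.

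Genes that act with these ligands and receptors were counted from lists. Of 53 effectors inside the cell, such as collapsin response mediators and kinases, 8 were higher and 6 lower in Exo than in Con at an unadjusted p under 0.05 (26.4% in all, against 14.9% of all tested genes, median log2 fold change 0.06). Leaving out Con replicate 1, 6 were higher and 4 lower, where 12.1% of all tested genes passed. Rock2, a kinase that contracts the growth cone, was higher (0.82) at 0.944 to 2.64 CPM, and Dpysl2, a collapsin response mediator, was higher by 0.31. Nfatc4, a calcineurin-dependent transcription factor, was lower (-0.77, unadjusted p = 0.0226 by edgeR), and Dpysl4, another collapsin response mediator, was at -0.10. With Wnt5a against Exo, 2 were higher and 7 lower (17% against 12%, median -0.01), and in pLV-Exo-Wnt5a against Con 3 were higher and 3 lower (11.3% against 8.35%, median 0.07). None had Q under 0.05 by edgeR.

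Of 34 other cues and receptors, 5 were higher and 4 lower in Exo than in Con at that threshold (26.5%, against 14.9% of all tested genes, median 0.06), and 5 and 5 without Con replicate 1, where 12.1% of all tested genes passed. With Wnt5a against Exo, 3 were higher and 7 lower (29.4% against 12%, median -0.03), and in pLV-Exo-Wnt5a against Con none was higher and 4 were lower (11.8% against 8.35%, median 0.02). Flrt2, which binds UNC5 receptors, was at 3.79, 4.39 and 5.08 CPM in Con, 6.72, 6.56 and 6.57 in Exo and 4.37, 4.81 and 4.89 in pLV-Exo-Wnt5a. Each Exo library was above the other 6, as for Unc5c (log2 fold changes 0.58 and -0.48, Q = 0.265 and 0.194 by edgeR). Mag, a myelin protein that inhibits axon growth, had the opposite order, at 17.7, 13.4 and 14.6 CPM in Con, 8.09, 11.2 and 9.70 in Exo and 13.0, 20.5 and 13.6 in pLV-Exo-Wnt5a (log2 fold changes -0.67 and 0.71).

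Marker genes of the cell types a differentiating culture may hold moved beside these results. In bulk RNA, fewer cells of a type and less RNA per cell cannot be told apart. Markers of neural stem cells (Sox2, Hes5), neurons (Tubb3), astrocytes (Gfap) and the oligodendrocyte lineage (Olig1, Olig2) were present at over 100 CPM in every library. Whether they came from the same or from different cells was not measured.

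Beside the receptors that were higher in Exo, 6 of 7 neuron markers had a positive log2 fold change in Exo against Con, 5 of them at an unadjusted p under 0.05 (median 0.44). With Con replicate 1 left out, 7 of 7 were positive and 4 passed (median 0.23). With Wnt5a against Exo, 5 of 7 had a negative one, 3 of them at that threshold (median -0.09). Dcx, a protein of young neurons, was at 50.5, 76.0 and 97.9 CPM in Con, 116, 117 and 98.7 in Exo and 75.0, 76.4 and 66.3 in pLV-Exo-Wnt5a, and fell with Wnt5a against Exo (log2 fold change -0.60, Q = 0.0113 by edgeR). The summed level of the 7 markers, mostly Tubb3, overlapped between groups, at 2765 to 2832 CPM in Con, 2761 to 3224 in Exo and 2554 to 3287 in pLV-Exo-Wnt5a. The part of these markers in the receptor values was not tested.

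Beside Sema3b, the summed level of 6 microglia markers was 4.02 to 5.87 CPM in Con, 1.73 to 2.73 in Exo and 4.29 to 5.60 in pLV-Exo-Wnt5a, without overlap between Exo and the other groups. The log2 fold changes of all 4 tested markers were negative in Exo against Con and positive in pLV-Exo-Wnt5a against Exo, 2 of the 4 at an unadjusted p under 0.05 in each case, Csf1r and Cx3cr1 in the first and Csf1r and Itgam in the second. Cx3cr1 was at 1.01 CPM on average in Con, 0.242 in Exo and 0.379 in pLV-Exo-Wnt5a, and was the marker lower in pLV-Exo-Wnt5a than in Con (log2 fold change -1.40, unadjusted p = 0.0158 by edgeR). The counts for Exo against Con were the same without Con replicate 1. Of the 2 untested markers, P2ry12 and Ptprc each had no read in 3 libraries. The astrocyte sum was 3789 to 4611 CPM in Con, 3674 to 3759 in Exo and 5402 to 5671 in pLV-Exo-Wnt5a, mostly Gfap, which rose with Wnt5a against Exo (log2 fold change 0.86, Q = 3.36e-05 by edgeR), whereas of the other 5 astrocyte markers Aldh1l1 was at 0.22 and 4 were below 0. The part of these cell types in the Sema3b values was not tested.

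Beside the B plexins and Ephb2, Mbp, a myelin protein, was lower in Exo than in Con (-0.44) and higher in pLV-Exo-Wnt5a than in Exo (0.57). The sum of the 7 oligodendrocyte lineage markers was 2159 to 2381 CPM in Con, 1996 to 2201 in Exo and 1934 to 2150 in pLV-Exo-Wnt5a, the last below Con without overlap, and 2 of 7 were lower in Exo than in Con at an unadjusted p under 0.05, with or without Con replicate 1. With Wnt5a against Exo, 3 of the 7 had a positive log2 fold change and 4 a negative one (median -0.08), with Mbp higher and Cspg4 lower (-0.24) at that threshold. The part of these markers in the plexin values was not tested. The sums of the remaining lists overlapped between groups, except that the fibroblast sum of Con lay above that of pLV-Exo-Wnt5a. The sum of 5 neural stem cell markers was 1183 to 1438, 1230 to 1545 and 1212 to 1494 CPM in Con, Exo and pLV-Exo-Wnt5a, that of 4 proliferation genes 37.9 to 44.1, 35.2 to 55.2 and 32.8 to 59.2, that of 4 endothelial genes 5.21 to 6.91, 4.80 to 8.06 and 4.21 to 7.03, and that of 6 fibroblast genes 23.5 to 31.4, 20.6 to 23.7 and 21.9 to 22.3.

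**Figure D4:**
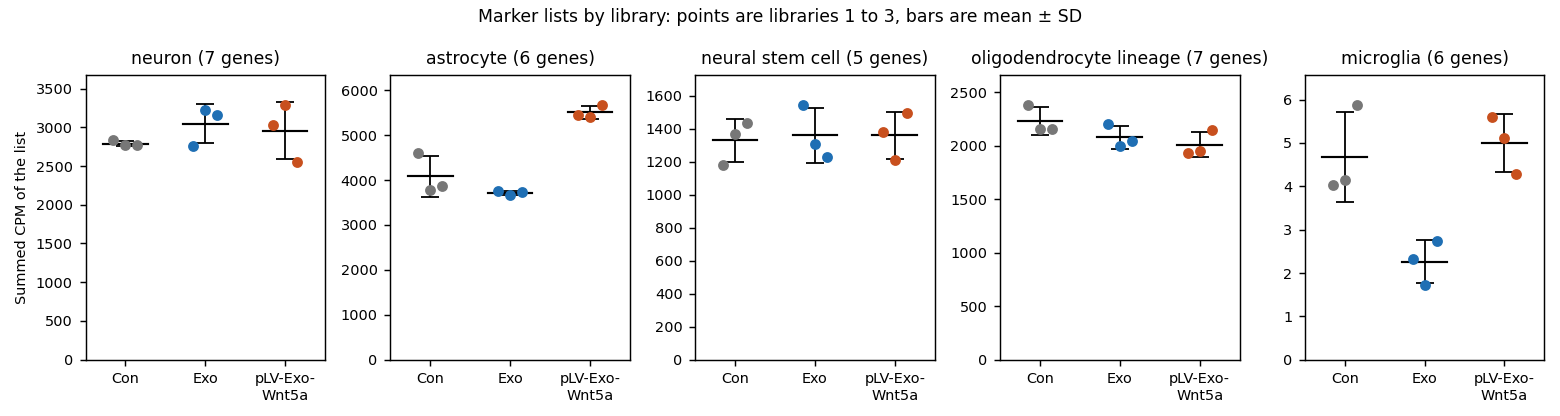
Each panel is a marker list, with its summed CPM in the 9 libraries as points (vertical axis, from 0) and the mean ± SD of each group as bars. The Exo libraries are lowest for the microglia list, between 1.73 and 2.73 CPM, and the pLV-Exo-Wnt5a libraries highest for the astrocyte list.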

How the data were processed

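Gene expression was measured by RNA-seq in 9 libraries of rat NSCs, 3 per group. The table the authors deposited holds raw counts as whole numbers for each gene. The submitters' processing notes name Bowtie2, RSEM 1.3.1 and DESeq2 1.4.5, whereas the paper's methods name HISAT2. The genome build, annotation, strand setting and treatment of reads shared by similar genes are not given in the sources used here. The genes carry mouse symbols and gene numbers, although the cells are rat. Each count column carries the library name of its sample.

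The quasi-likelihood test of edgeR 4.0.16 (R 4.3.3) was run on these counts in 3 comparisons of 6 libraries, after filterByExpr and TMM normalization within each comparison. Q is the Benjamini-Hochberg adjusted p over all tested genes. SE is the log2 fold change over the root of the F statistic, and 95% intervals use 10 degrees of freedom. The scripts were tested on simulated data. CPM values were normalized by TMM over all 9 libraries. The floor of 3 counts covers counting error only.

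The members and lists were chosen with earlier results of these data known. The text names members past Q, the 5 with the smallest p in each direction of the unadjusted list, the member with the most counts in each family, and textbook pairs. Other members named were chosen after their values were seen. The count at an unadjusted p alone was added after seeing the data. Alternatives were RLE, DESeq2 1.42.0, no filter or at least 10 counts per library, all 9 libraries in 1 fit, a replicate block, other thresholds, and leaving out each library.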

Additional observations from a re-analysis of the deposited data

How the results depend on the processing

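No guidance gene past an unadjusted p under 0.05 in the main fit reversed its direction under the alternatives. The effector, cue and marker lists were refitted only without Con replicate 1. Leaving out Con replicate 1 changed the sign of 6 of 66 guidance genes in Exo against Con and 16 of 66 in pLV-Exo-Wnt5a against Con, none of which passed with or without it, with absolute log2 fold changes of up to 0.19 and 0.16. The number of guidance genes past Q and the fold limit was 0 in Exo against Con and in pLV-Exo-Wnt5a against Con under all alternatives. In pLV-Exo-Wnt5a against Exo it was 1, became 2 without the fold limit, and lay between 0 and 1 with a library left out (0 without Exo replicate 2 or pLV-Exo-Wnt5a replicate 1). The unadjusted list of Exo against Con held 1 gene, 2 with no filter on low counts, 0 with a fold limit of 2, and 0 to 4 with a library left out (0 when Con replicate 1 was dropped, 2 for Exo replicate 2 or 3, 3 for Con replicate 2, 4 for Con replicate 3), while the list over all genes held 674, 354 without Con replicate 1 and 1428 without Con replicate 3. That of pLV-Exo-Wnt5a against Exo held 4, 1 with a fold limit of 2 and 3 to 5 with a library left out. That of pLV-Exo-Wnt5a against Con held 0, and 0 to 1 with a library left out (1 without Con replicate 1). With a library left out, the count at an unadjusted p alone was 11 to 21 in Exo against Con and 13 to 21 in pLV-Exo-Wnt5a against Exo, and 2 to 8 in pLV-Exo-Wnt5a against Con (8 when Con replicate 1 was dropped, 3 for Con replicate 2, 2 and 3 for pLV-Exo-Wnt5a replicates 1 and 2). The share of all tested genes moved too, from 8.64% to 23.4%, 8.55% to 13.4% and 4.07% to 14.4% in these comparisons, and the 21 guidance genes of Exo against Con came with the 23.4% (without Con replicate 3). The causes were not tested.

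Deviations from the group means were correlated between libraries of different groups. The correlations were between -0.424 and 0.191 for same-numbered libraries and between -0.363 and 0.424 for the others. Whether same-numbered libraries share a culture or a batch was not tested, and the labels do not say. With a replicate block, 1 guidance gene passed Q and the fold limit in pLV-Exo-Wnt5a against Exo, and the unadjusted lists held 1 and 4 genes in the first 2 comparisons. The count at an unadjusted p alone in Exo against Con fell from 16 to 10 with the block, and the share of all tested genes from 14.9% to 9.4%. Among the 67 tested rows, genes under about 1 CPM, such as Sema3c, Epha2 and Robo3, had coefficients of variation up to 63.2%, which limits the precision there.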
